A study of Rattus norvegicus with 6 samples.

Results

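Retinoic acid, the active form of vitamin A, is made from retinol in steps that end with an aldehyde dehydrogenase of the ALDH1A family. It is then carried in the cytosol by the binding proteins CRABP1 and CRABP2, acts in the nucleus through retinoic acid receptors paired with retinoid X receptors, and is broken down by CYP26 enzymes. In the developing cord it patterns motor neurons, and in the adult it is known for roles in neurite growth, myelin and immune cells. Described here are 9 genes chosen by name for these roles: the synthesis enzymes Aldh1a1, Aldh1a2 and Aldh1a3, the binding proteins Crabp1 and Crabp2, the receptors Rara, Rarb and Rarg, and the breakdown enzyme Cyp26b1. All 9 were measured, among 20530 named genes, and the brightest transcript cluster over the 6 arrays stood for each gene.

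Gene expression was measured in lumbar spinal cord, levels L2 to L6, of 6 Sprague-Dawley rats. Each rat was measured on an Affymetrix array of its own. The lidocaine group comprised 3 rats given 20 µL of 10% lidocaine, a sodium channel blocker used as a local anaesthetic, into the intrathecal space around the cord. The control group comprised 3 rats that were given no treatment and no injection, so drug and injection cannot be told apart. Cord was taken on day 4 in both groups, and the labels used here give no age, sex or genetic change. The values are log2 RMA values, in which a difference of 1 is a 2-fold change, and each value is relative to the other genes of its array. RNA came from whole tissue, so fewer cells of a type and less RNA per cell cannot be told apart.

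Over the named genes, the correlation of 2 arrays was 0.993 to 0.997 within a group and 0.978 to 0.985 across groups. The median log2 value of an array lay between 4.56 and 4.66. Of the 20530 genes, 4867 (23.7%) passed limma's adjusted p of 0.05, 9.7% higher and 14% lower in lidocaine. The count was 2754 without control rat 2 and 2906 without control rat 3. The split of 1992 higher and 2875 lower depended on the setting. It became 1761 higher and 4086 lower after median centring of the arrays, 1412 higher and 1342 lower without control rat 2, and 2622 higher and 2346 lower with all 63789 transcript clusters in 1 fit. The 2 groups did not overlap in 40.5% of genes. Markers of neurons and oligodendrocytes, the cells that define cord tissue, stood at 5.66 or above and 6.17 or above on the log2 scale on every array. They lay above the 95th percentile of their array's negative-control rows, apart from the neuron marker Elavl4 on the arrays of lidocaine rats 2 and 3 (5.92 and 5.66).

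Promoter sequences of some members, and of the further breakdown enzyme gene Cyp26a1, are shown as a description. Their part in the changes was not tested. All 9 members had a window from 250 bases before to 50 after a start site in RefSeq, build GRCr8. The windows of Aldh1a1 and Aldh1a2, which moved in opposite directions, are given for the 250 bases before the start, 5′ to 3′ on the gene's strand, with the CCAAT box and the octamer ATGCAAAT in capitals. Aldh1a1 lies on the plus strand at chr1:227537370-227537619 and Aldh1a2 on the plus strand at chr8:80758391-80758640.
Aldh1a1: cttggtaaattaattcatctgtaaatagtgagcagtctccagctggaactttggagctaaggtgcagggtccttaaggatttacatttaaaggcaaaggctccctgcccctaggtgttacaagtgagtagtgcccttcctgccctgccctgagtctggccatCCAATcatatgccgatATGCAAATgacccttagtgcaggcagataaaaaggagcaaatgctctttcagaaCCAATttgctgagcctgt
Aldh1a2: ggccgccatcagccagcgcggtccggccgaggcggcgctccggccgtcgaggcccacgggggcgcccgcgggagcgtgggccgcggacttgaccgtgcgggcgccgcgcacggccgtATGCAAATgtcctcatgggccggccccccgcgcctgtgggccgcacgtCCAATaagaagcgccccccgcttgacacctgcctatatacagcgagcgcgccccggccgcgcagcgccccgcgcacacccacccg
Both windows hold the octamer, beginning 72 bases before the start in Aldh1a1 and 133 before it in Aldh1a2. CCAAT begins 88 and 18 bases before the start in Aldh1a1 and 85 before it in Aldh1a2. Searched on both strands, ATGCAAAT lies in 1.56% of the 33469 RefSeq promoter windows over the same 250 bases, CCAAT in 34% and both together in 0.774%. The octamer was chosen after these sequences were seen, and the matches are a description of the letters only.

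The second pair of sequences holds direct repeats of the receptor-binding hexamer. Retinoic acid receptors bind paired hexamers of the form AGGTCA or the close variants AGTTCA, or GGGTCA, or GGTTCA, and a repeat with a spacer of 5 bases is called DR5. The DR5 of Rarb and that of Cyp26a1 are known in mouse and human as sites through which retinoic acid raises its own receptor and its own breakdown enzyme. Spacers of 1, 2 and 5 bases were searched on both strands in all windows of the 9 members and of 36 further retinoid pathway genes. Of these genes only Rarb and Cyp26a1 held a match, each a DR5. Sequence outside the windows was not searched, so the other genes may hold such repeats elsewhere. Both are shown with 6 flanking bases on each side and the hexamers in capitals, Rarb from chr15:11336410-11336438 and Cyp26a1 from chr1:244883724-244883752, on the plus strand of build GRCr8. In Cyp26a1 the hexamers read on the opposite strand.
Rarb: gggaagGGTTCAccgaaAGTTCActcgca
Cyp26a1: taaagaTGAACTttgggTGAACTaatttg
The repeat begins at base 25 in Rarb, counting the start site as base 1, and 92 bases before the start in Cyp26a1. A DR5 lies in 0.382% of all 33469 windows of 300 bases. Neither gene passed the threshold between lidocaine and control, as the values given with the receptors and the breakdown enzymes show.

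The comparison of lidocaine with control asks how expression in the cord differed 4 days after intrathecal lidocaine. Of the 9 members 5 changed, which is 55.6% beside 23.7% of all genes. With dim genes left out, 2556 of 4996 genes changed, so the share over all genes depends on brightness. This filter on dim genes kept 2 members, which both changed. Aldh1a2, Crabp2 and Rara rose, Aldh1a1 and Crabp1 fell, and Aldh1a3, Rarb, Rarg and Cyp26b1 did not pass. The groups did not overlap in 6 members, beside 40.5% of all genes. The median log2 difference of the 9 members was 0.086, beside -0.0095 over all genes. The members, like the pathway and marker lists below, were chosen with earlier results of these data known. With 9 genes chosen in this way, these shares are descriptions and carry no test.

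**Figure D1:**
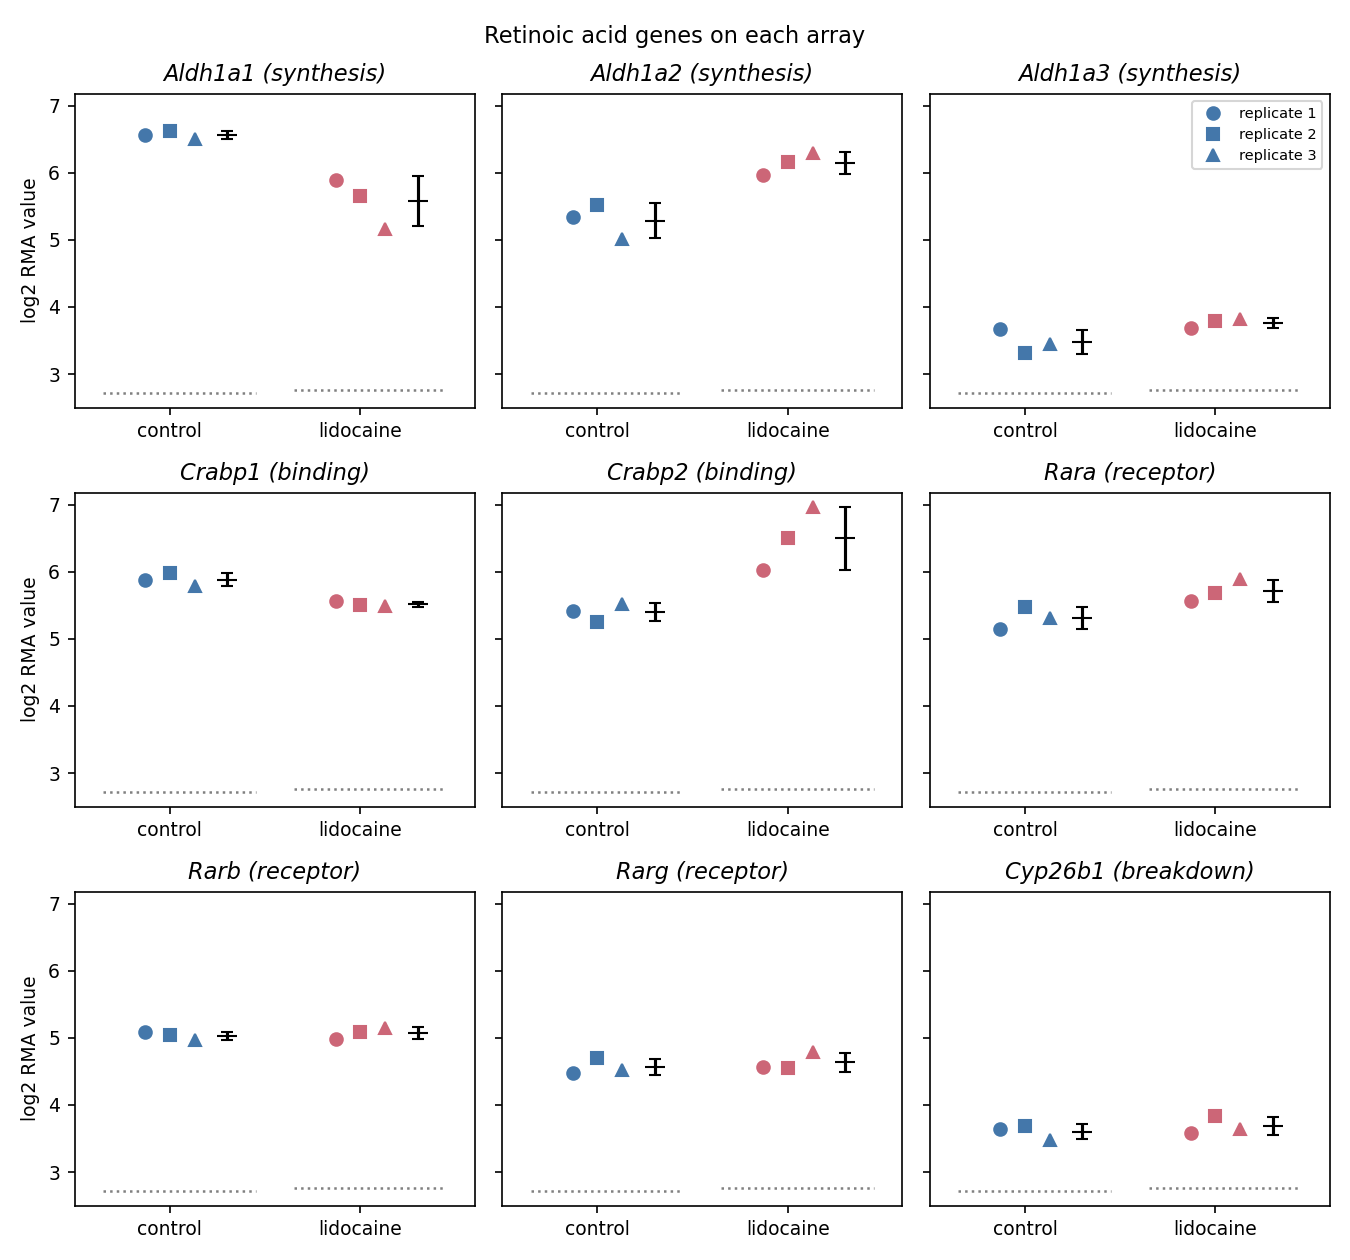
Each panel plots the log2 RMA value of 1 member on each of the 6 arrays, control in blue and lidocaine in red, with the group mean ± SD (n = 3) in black and the median of the negative-control rows dotted. The labels do not say that replicate numbers pair rats across groups, and they are not read as pairs. Aldh1a1 and Crabp1 lie lower and Aldh1a2, Crabp2 and Rara higher in all 3 lidocaine rats, while Rarb, Rarg and Cyp26b1 overlap between groups.

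The synthesis enzymes moved in opposite directions. Aldh1a1 encodes a retinal dehydrogenase found in many adult tissues, including dopamine neurons. It stood at 6.57, 6.62 and 6.50 in the control rats and at 5.90, 5.66 and 5.17 in the lidocaine rats. All lidocaine values lay below all control values, and lidocaine rat 3 was the lowest. It fell by 0.99 on the log2 scale (SE 0.17, 95% interval -1.37 to -0.60), which is 1.98-fold lower (adjusted p = 0.00612).

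Aldh1a2 encodes the enzyme that makes most retinoic acid in the embryo, and in mouse and chick it is known from meninges and motor neurons. It stood at 5.35, 5.51 and 5.01 in the control rats and at 5.97, 6.17 and 6.30 in the lidocaine rats. The groups did not overlap, and control rat 3 was the lowest of the 6. It rose by 0.86 on the log2 scale (SE 0.14, 95% interval 0.54 to 1.18), a 1.81-fold rise (adjusted p = 0.0052). Aldh1a3, the isoform known from the developing eye and nose, was dim, at 3.67, 3.31 and 3.45 in control and 3.68, 3.79 and 3.81 in lidocaine. Its groups lay side by side without overlap, with control rat 1 just under lidocaine rat 1. The log2 difference of Aldh1a3 was 0.29 (SE 0.097) and did not pass (adjusted p = 0.0699), but it passed without control rat 1 (0.38, adjusted p = 0.0239).

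The change of Aldh1a2 against Aldh1a1 was also followed within each array, where array-wide scaling cancels. The log2 value of Aldh1a2 minus that of Aldh1a1 was -1.22, -1.11 and -1.49 in the control rats and 0.07, 0.51 and 1.13 in the lidocaine rats. Since probes of different genes differ in brightness, only the shift between groups is read, and it was 1.84 on the log2 scale. All lidocaine rats lay above all control rats, and the exact two-sided permutation test gave p = 0.1, the smallest that 3 against 3 rats allow. Each gene alone already separated the groups, in opposite directions, so this separation and its p were fixed beforehand and add no support. The pair was chosen after its values were seen.

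**Figure D2:**
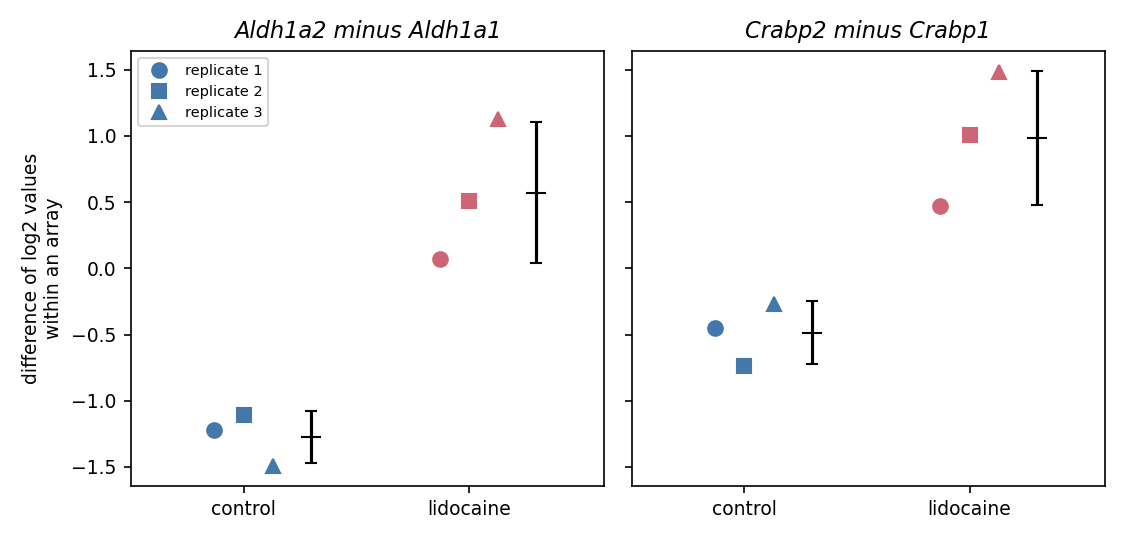
Each point is the difference between the log2 values of 2 genes on the same array, Aldh1a2 minus Aldh1a1 on the left and Crabp2 minus Crabp1 on the right, for control (blue) and lidocaine (red) rats, with group mean ± SD (n = 3) in black. The group means are 1.84 apart in the left panel and 1.47 apart in the right, and in neither do the groups overlap.

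The binding proteins also moved apart. Crabp2 encodes the protein that hands retinoic acid to its receptors in the nucleus, and it is itself known as a retinoic acid-responsive gene. It stood at 5.42, 5.25 and 5.53 in the control rats and at 6.03, 6.51 and 6.97 in the lidocaine rats. The groups did not overlap, and lidocaine rat 3 was the highest. Crabp2 rose by 1.10 on the log2 scale (SE 0.21, 95% interval 0.62 to 1.59), a 2.15-fold rise, the largest among the 9 members (adjusted p = 0.00923). A second, dimmer cluster of Crabp2 stood at 4.30, 4.30 and 4.40 in control and at 4.91, 5.28 and 5.53 in lidocaine, a rise of 0.91 (adjusted p = 0.00888 over all 63789 clusters).

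Crabp1 encodes the other cytosolic binding protein, which is linked to holding retinoic acid back from the nucleus and to its breakdown. It stood at 5.87, 5.99 and 5.79 in the control rats and at 5.56, 5.50 and 5.48 in the lidocaine rats. The lidocaine values lay close together, all under the control values. Crabp1 fell by 0.37 on the log2 scale (SE 0.070, 95% interval -0.53 to -0.21), which is 1.29-fold lower (adjusted p = 0.00917). Within arrays, Crabp2 minus Crabp1 was -0.45, -0.74 and -0.27 in control and 0.47, 1.01 and 1.48 in lidocaine. That is a shift of 1.47 on the log2 scale without overlap (exact two-sided permutation p = 0.1, the smallest possible, pair chosen after its values were seen). Here too the separation and its p followed from each gene's own values and add no support.

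Of the 3 receptors 1 changed. Rara, the receptor expressed most widely across tissues, stood at 5.15, 5.48 and 5.30 in control and at 5.56, 5.69 and 5.90 in lidocaine. Control rat 2 and lidocaine rat 1 were nearly level, without overlap. Rara rose by 0.40 on the log2 scale (SE 0.11, 95% interval 0.14 to 0.66), a 1.32-fold rise (adjusted p = 0.0355). This call was lost without control rat 1 or 3 (adjusted p = 0.0971 and 0.101), without lidocaine rat 2 or 3 (0.0807 and 0.088) and with p-values adjusted over all transcript clusters (0.0757), with log2 differences of 0.31 to 0.49 over the 6 fits without 1 rat.

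Rarb, the receptor whose promoter window holds the DR5 printed above, stood at 5.09, 5.04 and 4.96 in control and at 4.98, 5.09 and 5.15 in lidocaine. Its cluster was named by symbol alone, since the platform annotation gives it no gene identifier. The groups overlapped, and the log2 difference was 0.044 (95% interval -0.12 to 0.21, adjusted p = 0.717). After median centring it was -0.0041. Rarg, known from skin and cartilage, stood at 4.47, 4.71 and 4.52 in control and 4.56, 4.55 and 4.80 in lidocaine. Its groups overlapped too, with a log2 difference of 0.070 (95% interval -0.15 to 0.29, adjusted p = 0.658), or -0.010 without lidocaine rat 3.

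Cyp26b1, which breaks retinoic acid down and is the CYP26 enzyme best known from adult brain, was dim. It stood at 3.63, 3.69 and 3.48 in control and 3.58, 3.84 and 3.64 in lidocaine, with overlapping groups and a log2 difference of 0.086 (95% interval -0.12 to 0.30, adjusted p = 0.566). This difference was 0.038 after median centring and ran from 0.0088 without lidocaine rat 2 to 0.14 without lidocaine rat 1. The other breakdown enzymes, Cyp26a1 and Cyp26c1, did not pass either. Cyp26a1, which holds the other DR5, had a log2 difference of 0.00095 (95% interval -0.24 to 0.24, adjusted p = 0.996), a value whose sign turned with median centring (-0.047) and without control rat 2 or 3 or lidocaine rat 2. Cyp26c1 had one of -0.011 (adjusted p = 0.925), positive without control rat 3 or lidocaine rat 2.

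Brightness limits these values. The 1153 negative-control rows had medians of 2.65 to 2.81 on the 6 arrays, and every value of the 9 members lay above that of its own array. The 95th percentile of the negative controls, 5.79 to 6.06, was above every value of Rara, Rarb, Rarg, Aldh1a3 and Cyp26b1 on its own array. Aldh1a1 exceeded it on 3 arrays, all control, and Crabp2 on 2, both lidocaine. Aldh1a2 exceeded it on 2 lidocaine arrays and Crabp1 on 1 control array. The fold changes of these genes are therefore taken against a group that did not stand above this percentile. Aldh1a3 and Cyp26b1 were brighter than 70.9% and 71.6% of the negative-control rows. A difference of a dim gene measured after RMA can understate the change in RNA.

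The retinoid pathway around the members was followed in a list of 49 genes, of which 40 were measured and 9 were not analysed here. Of the 40, 12 changed, 8 higher and 4 lower, which is 30% beside 23.7% of all genes. Their median log2 difference was 0.045, beside -0.0095 over all genes. The count was 7 without control rat 3 and 8 with all transcript clusters in 1 fit, where Dhrs4, Egr1, Ncoa1 and Rxra were lost (adjusted p = 0.0981, 0.0584, 0.0512 and 0.121). The share of changed genes over the whole list was thus near that of all genes, and the values below describe single genes.

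Among 7 measured genes of retinol supply and storage, 1 rose and 1 fell, which is 28.6% changed beside 23.7% of all genes. Stra6, the cell-surface receptor that takes up retinol, stood at 4.93, 4.96 and 5.15 in control and at 6.31, 6.004 and 7.04 in lidocaine. All lidocaine rats lay above the controls, rat 3 highest. Stra6 exceeded the 95th percentile of its array's negative controls only in lidocaine rats 1 and 3. Stra6 rose by 1.44 on the log2 scale (SE 0.23), a 2.71-fold rise (adjusted p = 0.00523). Rlbp1, a retinal-binding protein best known from the eye, fell by 0.72 (SE 0.11), 1.64-fold lower (adjusted p = 0.00487). It exceeded the same percentile only in the control rats. Rbp4, the blood carrier of retinol, had a log2 difference of -0.16 (adjusted p = 0.562), which was 0.040 without control rat 2. Lrat, which stores retinol as esters, had one of 0.12 (adjusted p = 0.823), which was -0.25 without lidocaine rat 1 and -0.019 without control rat 2.

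Of 12 measured dehydrogenases and reductases of retinol and retinal, 3 rose and 1 fell, which is 33.3% changed beside 23.7% of all genes. Rdh10, which makes retinal from retinol and so feeds the ALDH1A enzymes, stood at 4.83, 4.98 and 4.96 in control and at 5.84, 6.23 and 6.62 in lidocaine. The groups were far apart, and Rdh10 rose by 1.31 on the log2 scale (SE 0.17), a 2.48-fold rise (adjusted p = 0.00251). It exceeded the 95th percentile of its array's negative controls only in lidocaine rats 2 and 3. Dhrs9, a short-chain dehydrogenase that can oxidise retinol and is also known as a macrophage gene in human, stood at 3.08, 3.01 and 3.35 in control and at 4.60, 5.35 and 5.73 in lidocaine.

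Dhrs9 rose by 2.08 on the log2 scale (SE 0.25), a 4.23-fold rise (adjusted p = 0.00183). Every Dhrs9 value lay under the 95th percentile of the negative controls on its own array. Dhrs3, which turns retinal back into retinol, had a log2 difference of 0.20 (SE 0.18, adjusted p = 0.491), and -0.0034 without lidocaine rat 3. Rdh11, a retinal reductase, fell by 0.44 (SE 0.083), 1.36-fold lower (adjusted p = 0.00912). Dhrs4, another retinal reductase, rose by 0.25 (adjusted p = 0.032), a call lost in 4 of the 6 fits without 1 rat (adjusted p up to 0.105) and with median centring (0.0566).

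Of 10 measured nuclear partners, co-regulators and genes of the other binding route, 1 rose and 1 fell. That is 20% changed beside 23.7% of all genes. Rxra, the retinoid X receptor that pairs with retinoic acid receptors in most tissues, rose by 0.22 on the log2 scale (SE 0.063, adjusted p = 0.0377), a call lost in 5 of the 6 fits without 1 rat (adjusted p up to 0.124) and with median centring (0.0705). Rxrg had a log2 difference of -0.095 (adjusted p = 0.563). Ncoa1, a coactivator of nuclear receptors, fell by 0.31 (SE 0.069, adjusted p = 0.0161), but did not pass without control rat 2 or 3 (0.0601 and 0.0648) or with all transcript clusters in 1 fit. Fabp5, which carries retinoic acid to another class of nuclear receptor, had a log2 difference of -0.11 (adjusted p = 0.487).

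Among 12 measured genes known as retinoic acid targets, 4 rose and 1 fell, which is 41.7% changed beside 23.7% of all genes. Stra6 is one of those that rose. The list was not tested as a set. Tgm2, tissue transglutaminase, stood at 5.96, 6.14 and 6.02 in control and at 6.90, 6.84 and 6.70 in lidocaine, a rise of 0.78 on the log2 scale (SE 0.078, 1.71-fold, adjusted p = 0.000778). The Tgm2 groups were far apart. Rarres1, a retinoid-induced gene of epithelia, rose by 0.59 (SE 0.13, adjusted p = 0.0153), but did not pass when control rat 2 or 3 was left out (0.0631 and 0.0529). Egr1, an immediate early transcription factor, rose by 0.58 (SE 0.15, adjusted p = 0.0301), a call lost in 4 of the 6 fits without 1 rat (adjusted p up to 0.105). Meis2, a homeodomain factor, fell by 0.34 (SE 0.065, adjusted p = 0.00967). Every value of Meis2, Dhrs4 and Rxra lay under the 95th percentile of the negative controls on its own array. Rdh11 exceeded it only in control rats 2 and 3, and Rarres1 only in lidocaine rat 3. Egr1 exceeded it in control rat 2 and lidocaine rats 2 and 3.

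**Figure D3:**
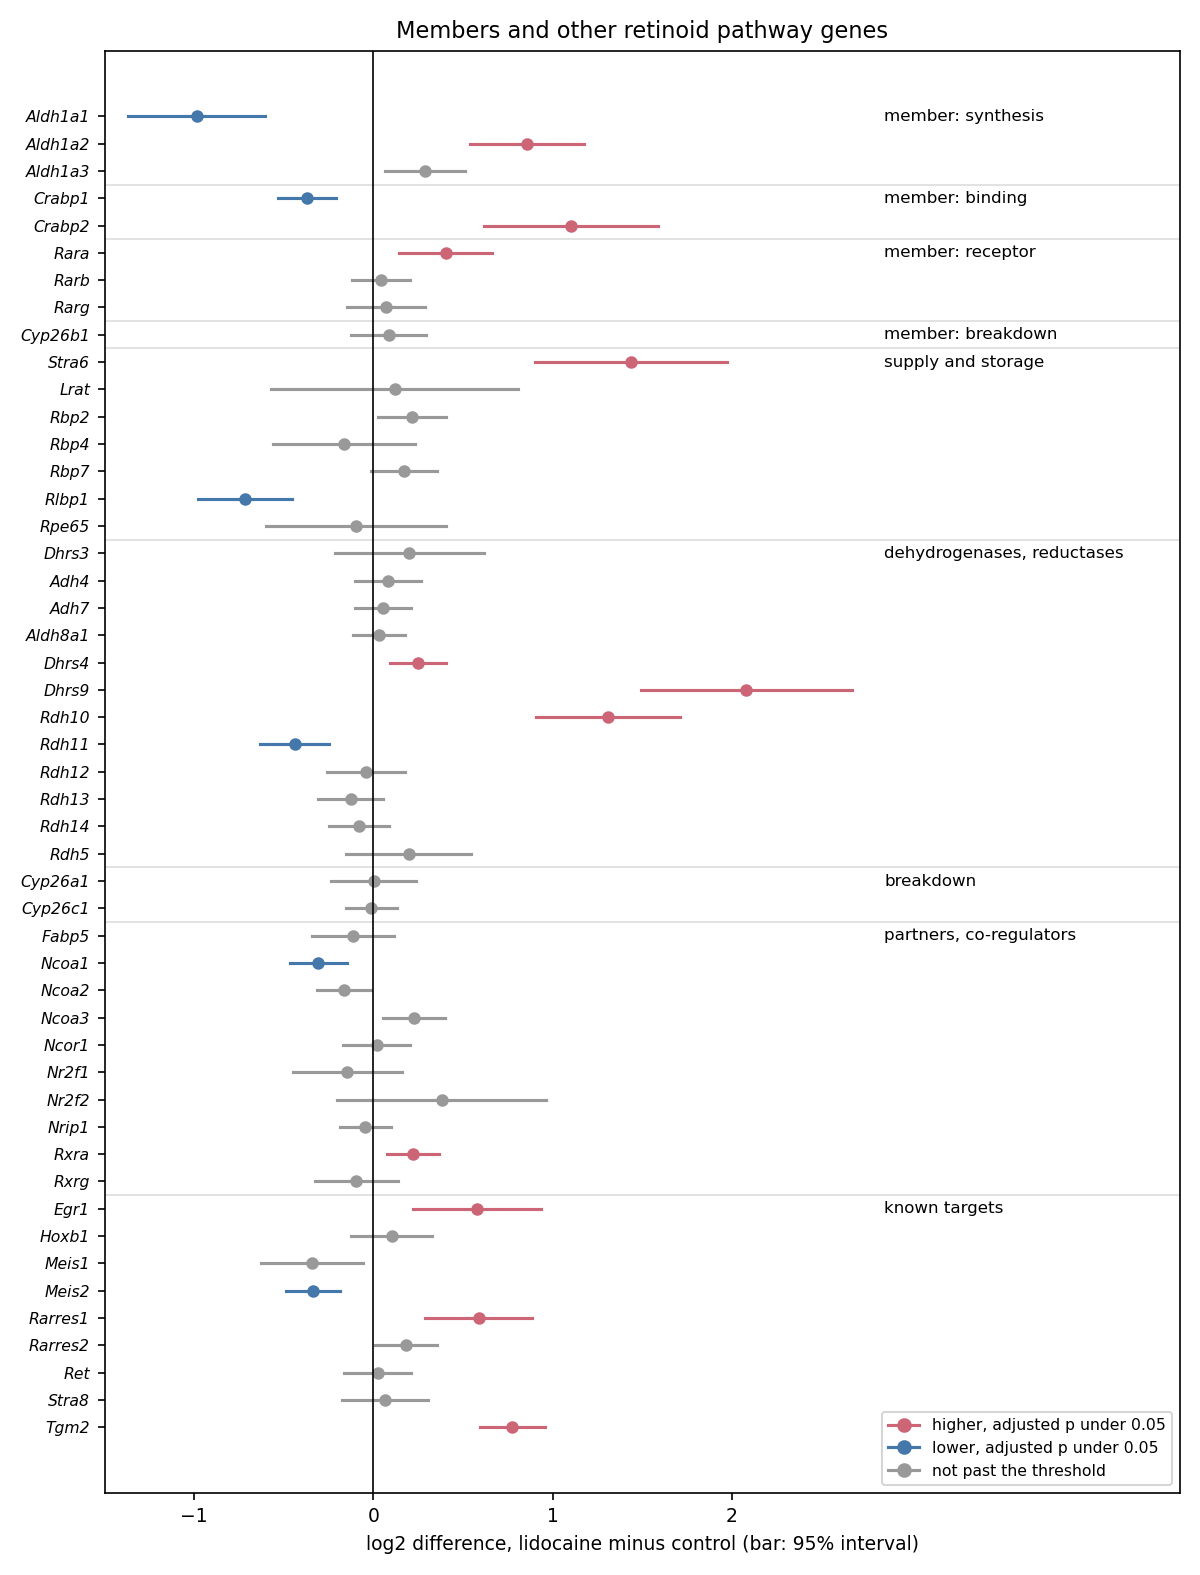
Points give the log2 difference, lidocaine minus control, of the 9 members and the 40 other measured retinoid genes, grouped by role, and bars the 95% interval of limma's fit to 3 rats per group. Red and blue mark genes higher and lower at adjusted p under 0.05. Dhrs9, Stra6, Rdh10 and Crabp2 lie farthest to the right and Aldh1a1 farthest to the left, while Rarb, Rarg and the CYP26 enzymes lie near 0.

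Genes that carry a DR5 in the promoter window were counted on the same arrays. Of 116 such genes 25 were measured under the same symbol. Among them 3 fell and 0 rose in limma's fit across all genes (5 lower and 0 higher at an unadjusted p under 0.05), which is 12% beside 23.7% of all genes, and their median log2 difference was 0.015. The list was drawn up after the members' values were known and gets no test.

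Markers of several cell types differed between the groups, and their values stand here beside the members. Over all genes, 9.7% were higher and 14% lower in lidocaine. All 11 microglia and macrophage markers rose, and their summed signal, in linear array units, was 715 to 771 in control and 2283 to 2344 in lidocaine. All 5 measured markers of dividing cells rose, from 82.4 to 91.2 in control to 264 to 396 in lidocaine. Of the 9 measured oligodendrocyte markers 7 fell, with sums of 4754 to 5082 in control and 3285 to 3544 in lidocaine. Of the 9 measured neuron markers 7 fell, with 6500 to 6783 in control and 4394 to 5504 in lidocaine. In the motor neuron list 3 of 8 fell, with 736 to 786 in control and 559 to 685 in lidocaine.

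Leptomeningeal and perivascular fibroblast markers did not all move in 1 direction. Of the lists, this one is closest to the meninges, which with motor neurons are known sites of Aldh1a2. Of 15, 3 rose (Dcn, Pdgfra and Foxc1), 4 fell (Slc22a8, Igf2, Vtn and Cnmd) and 8 did not pass. Pdgfra is also counted in the list of oligodendrocyte precursors. The fibroblast marker sums were 1890 to 2521 in control and 2303 to 3230 in lidocaine, which overlap. Bright markers weigh most in a linear sum. The mean log2 value of the fibroblast list also overlapped, at 6.39 to 6.61 in control and 6.15 to 6.79 in lidocaine. Col1a1 and Col1a2 had log2 differences of 0.088 and -0.030 (adjusted p = 0.885 and 0.96). The remaining lists were astrocytes (1 of 7 rose and 4 fell), oligodendrocyte precursors (1 of 5 rose and 2 fell), vessels (1 of 8 fell), ependymal cells (1 of 5 fell) and Schwann cells (0 of 3 changed in limma's fit, and none had an unadjusted p under 0.05). For astrocytes and ependymal cells the sums overlapped between groups but the mean log2 values did not. The astrocyte means were 8.05 to 8.17 in control and 7.71 to 7.97 in lidocaine. The ependymal means were 4.37 to 4.65 in control and 4.28 to 4.32 in lidocaine. The dimmest marker value was 3.23. Some markers lay under the 95th percentile of the negative controls on every array, among them Aurkb, Birc5 and Ccnb1 of the dividing-cell list. The part of any of these cell types in the changes of the retinoic acid genes was not tested.

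**Figure D4:**
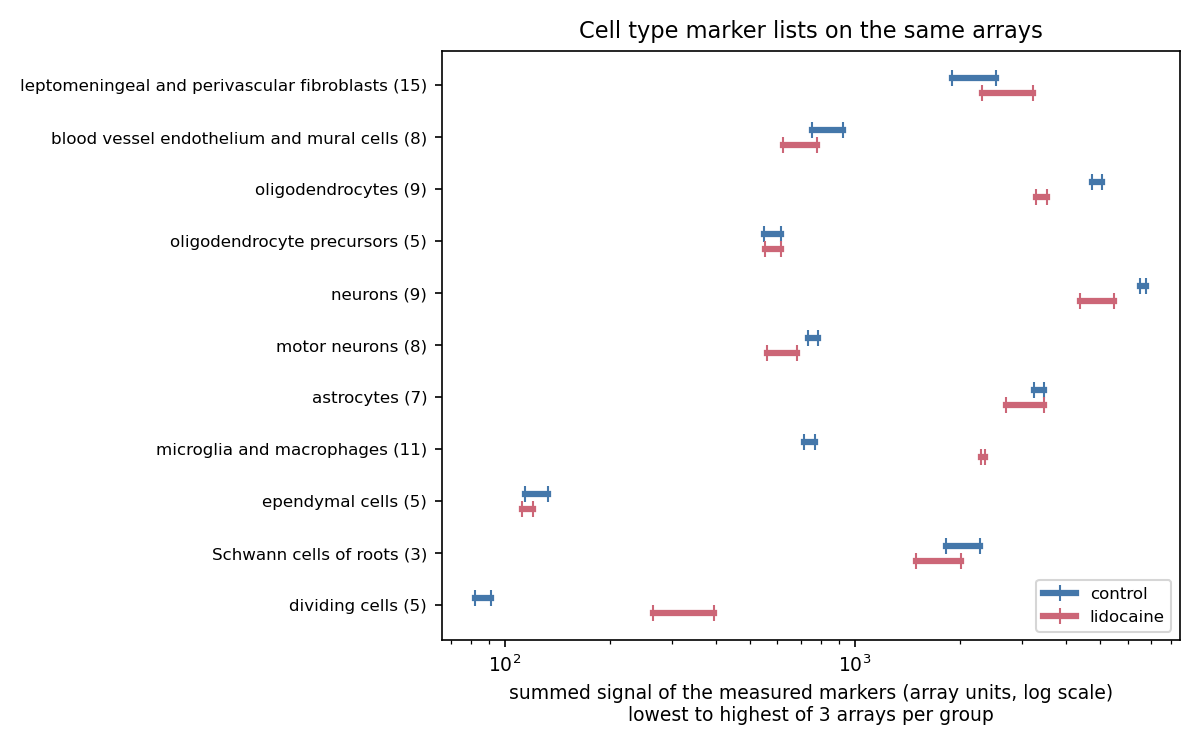
Bars run from the lowest to the highest summed signal over 3 arrays for each marker list, control in blue and lidocaine in red, on a log axis in linear array units, with the number of measured markers in brackets. Microglia and macrophage markers and markers of dividing cells lie higher and oligodendrocyte, neuron and motor neuron markers lower in lidocaine without overlap, while fibroblast marker sums overlap.

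Lidocaine rat 3 lay farthest from the control mean in all 5 members that changed. The same rat lay farthest in 8 of the 12 other pathway genes that changed and in 63% of all 4867 genes that changed. Without lidocaine rat 3 the log2 differences were -0.78 for Aldh1a1, 0.78 for Aldh1a2, 0.87 for Crabp2 and -0.35 for Crabp1, all past the threshold (adjusted p = 0.00196, 0.0127, 0.00868 and 0.0233). The calls of these 4 genes held under every alternative other than the filter on dim genes. The call of Rara did not.

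For each member that changed, the 3 genes with the most similar pattern were found by the root mean square difference over the 6 arrays, after each gene's own mean was taken off. For Aldh1a1 these were Trhr, LOC100909866 and Kcnip1 (0.0979 to 0.106 on the log2 scale). For Aldh1a2 they were Gna15, Crip1 and Cebpa (0.0961 to 0.0987). For Crabp2 they were Cenpw, Ly49si2 and Pbk (0.0887 to 0.114), of which Cenpw and Pbk are known from dividing cells. These 3 were dim, with means of 2.25, 2.35 and 3.06 in control and 3.40, 3.50 and 4.11 in lidocaine. The control means of Cenpw and Ly49si2 lay under the negative-control medians. For Crabp1 they were Porcn, Wdr35 and Chrna3 (0.0177 to 0.0243), and for Rara they were Xaf1, Tcn2 and Lin9-ps1 (0.0469 to 0.05). With 6 arrays in 2 groups, this likeness mostly states that a gene differed between the groups by a similar amount.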

How the data were processed

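The table holds log2 values, 1 per transcript cluster and array, which the authors made with RMA according to the submitters' processing notes. This method corrects background, equalises probe distributions across arrays and summarises probes. For its version, the build and the annotation nothing is stated in the sources used here. Biotin-labelled cDNA came from 150 ng of total RNA, per the labels' protocols. Of 65527 rows, 63789 were transcript clusters. The platform annotation named 1 gene for 21560, several for 471 (not used) and none for 41758. Symbols were updated by gene identifier through a RefSeq table of GRCr8 (20304 clusters matched; Rarb, which has no identifier there, kept its symbol), and the brightest cluster over 6 arrays was kept, leaving 20530 genes.

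Groups came from the sample titles, 3 arrays each. The labels give no batch and do not say that replicate numbers pair rats. The comparison used limma 3.58.1 under R 4.3.3 (lmFit, eBayes, Benjamini-Hochberg over all 20530 genes, threshold 0.05), and an adjusted p is limma's throughout. Precision is limited by the number of arrays. The steps were tested on simulated data. Members and lists were chosen with earlier results of these data known. Genes named are the members, the pathway genes past the threshold, 13 pathway genes fixed by name and the 3 nearest patterns per changed member. Others were chosen after their values were seen. Alternatives were median centring, leaving out dim genes, the mean of a gene's clusters, a replicate block, eBayes with a trend, all clusters in 1 fit, and leaving out each array.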

Additional observations from a re-analysis of the deposited data

How the results depend on the processing

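The calls of Aldh1a1, Aldh1a2, Crabp1 and Crabp2 held under the 11 alternatives other than the filter on dim genes. Aldh1a1, Aldh1a2 and Crabp1 have 1 cluster each. For these genes the mean of a gene's clusters left the values as they were and adds no support. The filter on dim genes kept 4996 genes, of which 2556 changed. It kept 2 members, Aldh1a1 and Crabp2, and 9 pathway genes, of which 2 and 3 changed. Both members, and Rlbp1 among the pathway genes, passed it through the group where they were brighter, so their calls there add no support. Without 1 array each, the count over all genes ran from 2754 to 4335, the lowest values without control rat 2 (2754) and control rat 3 (2906), that of members from 4 to 5 and that of pathway genes from 7 to 12. With all clusters in 1 fit Rara (log2 difference 0.40), Dhrs4, Egr1, Ncoa1 and Rxra were lost. Without 1 array the difference of Rara ran from 0.31 to 0.49, and that of Cyp26b1 from 0.0088 to 0.14. That of Aldh1a3 ran from 0.20 to 0.38. The difference of Rarb became -0.0041 and that of Cyp26a1 -0.047 after median centring. Without 1 array, Rarg ran from -0.010 to 0.14, Cyp26a1 from -0.12 to 0.072, Cyp26c1 from -0.046 to 0.019, Dhrs3 from -0.0034 to 0.37, Lrat from -0.25 to 0.40 and Rbp4 from -0.30 to 0.040. The cause of these shifts was not tested. With the replicate number as a block, 4005 genes, 5 members and 10 pathway genes changed, with Dhrs4 and Rxra lost. Deviations of same-numbered rats correlated at -0.063, -0.24 and 0.14, and control rat 1 correlated best with lidocaine rat 2 (0.38). With 3 rats per group these values cannot decide whether rats were paired, and the numbers are not read as pairs. Of the 4 members that did not pass, none can be called unchanged with 3 rats per group.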

Other observations

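The genes next to the members on the chromosome, by their order in the RefSeq table, add values that belong in no comparison above. Among measured genes, Aldh1a1 lies between Anxa1 and Tmc1. Anxa1 encodes annexin A1, a protein that damps inflammation. While Aldh1a1 was lower in lidocaine, Anxa1 rose from 4.19 ± 0.12 to 6.27 ± 0.16 on the log2 scale, as mean ± SD of 3 rats per group (adjusted p = 3.75e-05), and Tmc1 had a log2 difference of -0.014 (adjusted p = 0.906). On one side of Crabp2 lie Nes, which encodes the intermediate filament nestin, and Bcan, which encodes the brain proteoglycan brevican. Nes rose from 5.65 ± 0.29 to 6.45 ± 0.49 (adjusted p = 0.0486), and Bcan fell from 6.53 ± 0.13 to 5.78 ± 0.18 (adjusted p = 0.00337), while Isg20l2 on the other side of Crabp2 had a log2 difference of 0.016 (adjusted p = 0.892). Next to Rarb, Thrb, a thyroid hormone receptor, fell by 0.30 on the log2 scale (adjusted p = 0.0145), and Chsy1 and Lrrk1 near Aldh1a3 rose by 0.83 and 0.51 (adjusted p = 0.000744 and 0.00591). Of the 36 genes within 2 measured neighbours of a member, 12 changed, which is 33.3% beside 23.7% of all genes, 8 higher and 4 lower. Those not yet named are Myzap, Cdc6, Top2a and Espl1, which rose, and Nr1d2 and Exoc6b, which fell. These genes were chosen after the members' values were seen.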
